A study of Mus musculus with 52 samples.

Results

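Trimethylation of histone H3 at lysine 4 (H3K4me3) is a mark of promoters, and 3578 regions carried it far from any listed transcription start site (TSS) in every library of mouse embryonic fibroblasts (MEFs) with or without MLL2. The regions were chosen by their measured H3K4me3 peaks. The peak intervals of all 6 H3K4me3 libraries were intersected, which gave 16686 intervals on the main chromosomes, and 3578 of them were kept because no start of a transcript listed in the deposited tables was within 5 kb. The other 13108 intervals lay within 5 kb of a TSS. For comparison, 3743 distal regions had H3K4me3 peaks in 1 to 5 of the 6 libraries, and 78913 distal regions had H3K4me1 peaks without H3K4me3. Since H3K4me3 peaks chose the regions, H3K4me3 values at them are given as a description with no test, and the tests concern H3K4me1 and H3K4me2.

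FC/FC cells were immortalized MEFs exposed to tamoxifen for 24 h, which excises part of both copies of Mll2 (Kmt2d, the gene of a histone H3K4 methyltransferase). Per the methods, cells were then washed and grew for several further days before harvest unless otherwise stated. F/F cells were the same kind of MEFs, with loxP sites in both copies of Mll2, and no tamoxifen is recorded for them. Every FC/FC library thus differed from every F/F library in tamoxifen as well as in genotype, and these cannot be told apart here. Chromatin immunoprecipitation with sequencing (ChIP-seq) of H3K4me1, H3K4me2, and H3K4me3 was represented by 3 FC/FC and 3 F/F libraries for each mark, and the labels do not say whether these came from separate cultures, so p-values measure the spread between these libraries only.

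In mammalian chromatin, active promoters typically carry H3K4me3 at their center with H3K4me2 and H3K4me1 on the flanks, whereas enhancers are known for H3K4me1 and H3K4me2 with little H3K4me3. MLL2 is one of several enzymes that methylate this lysine and is best known for monomethylation at enhancers, and H3K4me3 at CpG-rich promoters is largely the work of related enzymes. Distal H3K4me3 can mark a promoter that an annotation lacks, and it can also lie at a strong enhancer.

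The sequence at the center of some of these regions is shown because their letters and their annotation differ widely. Each line gives 300 bases of the mm10 genome, plus strand, at the center of a region, with CG dinucleotides in capitals. The first lies in chr15:101253366-101255323, over a start of the immediate early nuclear receptor gene Nr4a1 that the deposited tables do not list, and holds 41 CG dinucleotides at 78.3% GC.
chr15:101254195-101254494: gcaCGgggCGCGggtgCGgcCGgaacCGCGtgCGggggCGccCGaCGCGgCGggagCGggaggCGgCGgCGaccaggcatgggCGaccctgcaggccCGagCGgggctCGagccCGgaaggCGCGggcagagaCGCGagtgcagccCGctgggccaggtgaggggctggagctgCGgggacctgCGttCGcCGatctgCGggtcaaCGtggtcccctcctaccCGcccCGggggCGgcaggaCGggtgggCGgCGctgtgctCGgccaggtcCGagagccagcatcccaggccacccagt
The next lies in chr1:171043687-171045759, one of the regions with an H3K4me3 score at the ceiling of about 3100, explained below, or above it in every library. Its nearest listed TSS, of the Fc receptor gene Fcgr3, is 13644 bp away, the nearest annotated TSS of any kind is 12295 bp away, and it holds 11 CG dinucleotides at 53.3% GC.
chr1:171044573-171044872: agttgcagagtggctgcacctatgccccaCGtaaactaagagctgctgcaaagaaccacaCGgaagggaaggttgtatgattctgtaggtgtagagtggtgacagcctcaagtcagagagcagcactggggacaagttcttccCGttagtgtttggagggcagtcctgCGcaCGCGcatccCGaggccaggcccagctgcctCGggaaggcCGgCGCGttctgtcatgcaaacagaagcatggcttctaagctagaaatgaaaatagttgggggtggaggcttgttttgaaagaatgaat
The last lies in chr5:133841887-133842666, over the processed pseudogene Gm7902, and holds 6 CG dinucleotides at 53.7% GC. A processed pseudogene is a DNA copy of a spliced transcript placed elsewhere in the genome, and these same 300 bases, with 100% identity, also stand at chr10:117745793-117746092 in the H3K4me3 region over the start of Slc35e3, a gene of a nucleotide-sugar transporter family.
chr5:133842127-133842426: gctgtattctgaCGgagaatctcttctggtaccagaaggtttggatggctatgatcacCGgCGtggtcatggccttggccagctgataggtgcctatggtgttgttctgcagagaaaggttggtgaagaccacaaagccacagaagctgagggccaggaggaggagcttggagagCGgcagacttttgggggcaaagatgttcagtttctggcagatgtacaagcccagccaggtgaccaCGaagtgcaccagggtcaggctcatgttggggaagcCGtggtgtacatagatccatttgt
The first 2 of these windows are rich or moderately rich in CG dinucleotides, and the last is poor in them and is a copy of sequence at a gene start.

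The 3578 regions had a median width of 1012 bp, with the middle 50% between 707 and 1509 bp, against 2204 bp for intervals within 5 kb of a TSS. Their H3K4me3 was called with lower confidence than at listed promoters. The score of a peak is −10 log10 of the p-value that the peak caller gave it, and most strong peaks stand at about 3100. The median score of the regions was 458, 407, and 408.4 in the 3 FC/FC libraries, against 463, 387, and 646 in the 3 F/F libraries. In the intervals within 5 kb of a TSS the median was 3100 in each library. The F/F library with 646 was also the deepest of the 6, with 48469734 reads against 29716371 to 36865445 in the other 5, and the part of depth in its scores was not tested. In all 6 libraries together, 435 regions (12.2%) had a score of 3100 or more.

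The widths at the extremes show what the intersection kept. The widest, chr13:63271536-63282362 with 10827 bp, lay over the start of 2010111I01Rik, a peptidase gene, and the next 4 spanned 8249 to 9784 bp over starts of Arid5b, Lncpint, Fat1, and Bcl9l. Arid5b encodes a DNA-binding protein, Lncpint is a long noncoding RNA, Fat1 encodes a large cadherin, and Bcl9l a partner of beta-catenin. At the other end, 47 regions were under 200 bp, the narrowest 5 of them 1 to 4 bp, where peaks of different libraries barely met. The regions kept nearest to the distance limit, near Zfp362, Zkscan3, and Fzd5, lay 5004, 5005, and 5006 bp from a TSS with mean scores of 3100, 2716, and 2638. The intervals just outside the rule, near Mir684-1, Zfp389, and Rnh1, lay 4996, 4995, and 4994 bp from a TSS with mean scores of 125, 189, and 261.

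Many of the regions were distal only with respect to the transcripts in the tables. In the fuller GENCODE M21 and RefSeq annotations of the same genome build, 1112 of the 3578 regions contained a TSS, 1399 (39.1%) had one within 1 kb, and 1836 (51.3%) had one within 5 kb. In addition, the central 300 bases of 538 regions (15.0%) matched a constant H3K4me3 region within 5 kb of a listed TSS over at least 100 bp with at least 90% identity. These are called promoter copies here, a name that does not say which of the matched sequences came first. Of the 538, 94 had a protein-coding TSS of their own within 1 kb, and for 119 the matched region itself contained no listed TSS. At chr14:78730610-78733996, for example, over a start of Dgkh, a lipid kinase gene, H3K4me3 stood at 3100 in every library, whereas the region it matched, 4331 bp from the TSS of Gm5796, scored 248, 237, and 213 in FC/FC, against 296, 181, and 351 in F/F. By these criteria, which were chosen after the data had been seen, the regions fell into 5 separate classes. Beside the 538 promoter copies, 606 (16.9%) had a TSS of a protein-coding gene within 1 kb, 367 (10.3%) had only a noncoding TSS within 1 kb, 421 (11.8%) had a TSS 1 to 5 kb away, and 1646 (46.0%) lay over 5 kb from every TSS. Of the 606, 558 were near the start of a gene whose symbol is in the tables with other coordinates, that is, at another start of a listed gene. Relative to the gene models, 19.3% of the regions had their center in an exon, 41.4% in an intron, and 39.3% between genes.

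Promoter copies were a feature of distal H3K4me3, constant or not. They made up 538 of the 3578 constant regions (15.0%), 352 of the 3743 regions with H3K4me3 in 1 to 5 libraries (9.40%), and 17 of the 78913 distal H3K4me1 regions without H3K4me3 (0.0215%). The median match of the 538 was 288.5 bp long with 98.5% identity, and 209 matched with 99% identity or more. The matched region was on another chromosome for 359 of them, and for 48 it was nearest a gene named Zfp, a family of zinc finger proteins. Of the 538, 328 (60.97%) had the start of a processed pseudogene within 1 kb, against 56 of the other 3040 regions (1.84%). At such identity a read from the copy and a read from its source can align equally well to both places. H3K4me3, H3K4me2, and H3K4me1 at the copies are therefore all uncertain. Reads were aligned at the aligner's default settings, and the sources used here say no more on how reads with several equal matches were handled.

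The copy on chromosome 5 printed above shows the pattern at a single place. Its H3K4me3 score was 3100 in all 3 FC/FC libraries, against 3100, 3143, and 3100 in the F/F libraries. H3K4me2 was lower, at 2045, 1573, and 1344 in FC/FC, against 1522, 1067, and 1777 in F/F, and H3K4me1 peaks were called in none of the 6 libraries. Its source at Slc35e3 had H3K4me3 and H3K4me2 scores of 3100 in every library. There, H3K4me1 peaks scored 407.96, 420.1, and 369 in FC/FC, against 267, 204, and 444 in F/F. Other copies with H3K4me3 at the ceiling matched the promoters of Taf1b, a gene of the RNA polymerase I machinery, with 94.2% identity, and of Nid1, which encodes a basement membrane protein, with 100% identity. The copy of the Nid1 promoter, at chr13:12701581-12704617, had H3K4me1 peaks in all 6 libraries, at 404, 655, and 767 in FC/FC, against 597, 544, and 874 in F/F. The matched region at Nid1 had H3K4me1 at 258, 831, and 823 in FC/FC, against 203, 635, and 717 in F/F. A high identity thus did not always go with a lack of called H3K4me1 peaks. The part of shared reads in these peaks was not tested.

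H3K4me1 peaks, which the choice of regions did not use, were called at far fewer of the copies than of the other regions. The copies were defined by a match to H3K4me3 regions, and reads of each mark can be shared with the matched region. What part this has in the shares below was not tested. Promoter copies had an H3K4me1 peak in 11.3% ± 0.39 of cases in FC/FC libraries and 10.4% ± 1.8 in F/F libraries (SD, n = 3 each). In the 1646 regions over 5 kb from every TSS the shares were 83.5% ± 1.4 in FC/FC and 80.5% ± 3.3 in F/F. The copies were lower in all 6 libraries, by 68.2 to 73.3 percentage points with a mean difference of −71.2 (exact two-sided sign-flip permutation test over 6 libraries, p = 0.03125, adjusted p = 0.03125 over 8 class comparisons). That is the smallest p that 6 libraries allow. For H3K4me2 the difference was −32.0 points, with shares in copies of 67.1% ± 3.1 in FC/FC and 66.4% ± 3.6 in F/F, and it lay between −36.3 and −29.1 in the single libraries (exact p = 0.03125, adjusted p = 0.03125). The 444 copies without a coding TSS of their own had H3K4me1 in 8.41% ± 0.13 of cases in FC/FC and 8.86% ± 1.1 in F/F, and the 94 with one in 24.8% ± 1.6 in FC/FC and 17.7% ± 6.8 in F/F, a split made after the data had been seen. Median H3K4me3 scores of the copies, 295 ± 42 in FC/FC and 308 ± 51 in F/F, were near those of the regions over 5 kb from every TSS, 319 ± 17 in FC/FC and 387 ± 99 in F/F.

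**Figure D1:**
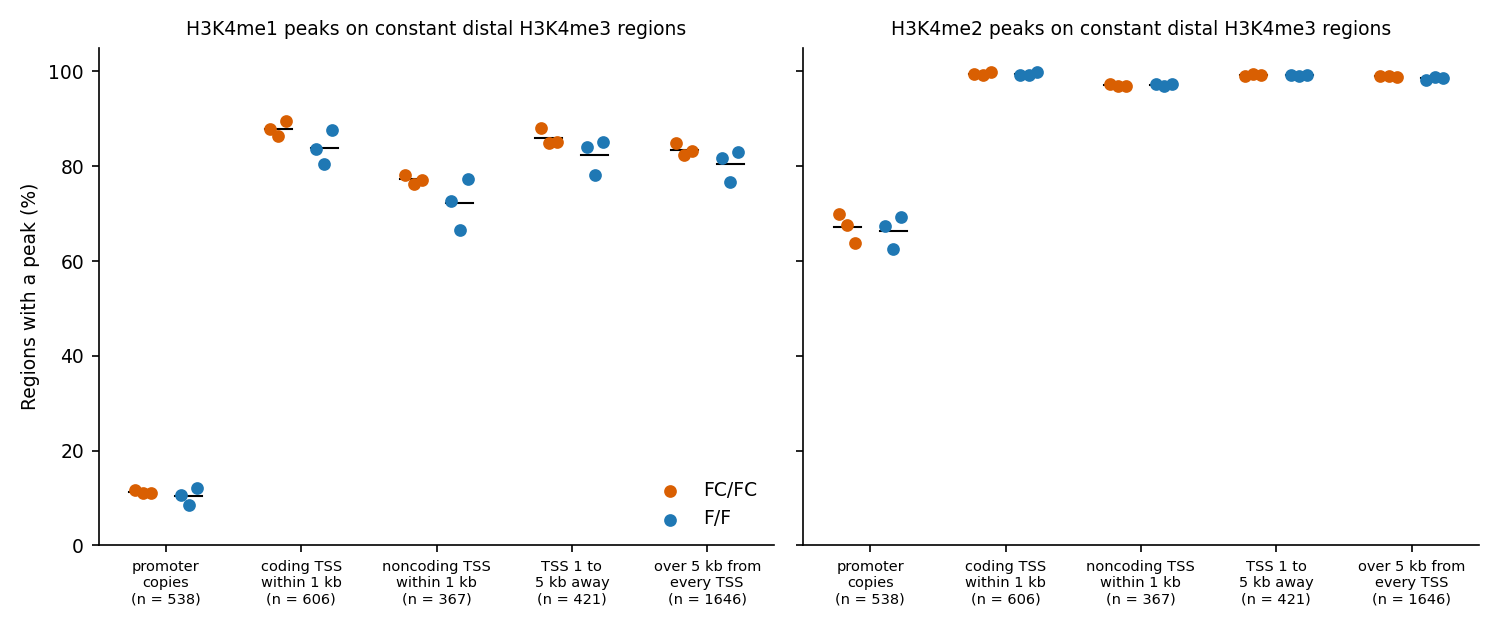
Percentage of constant distal H3K4me3 regions with an H3K4me1 peak (left) or H3K4me2 peak (right), by class of region. Points are single libraries, FC/FC in orange and F/F in blue, and bars are means of 3 libraries. Promoter copies lie between 8.55% and 12.1% for H3K4me1 and between 62.5% and 69.9% for H3K4me2, and the lowest point of any other class is 66.5% for H3K4me1 and 97.0% for H3K4me2.

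Width moved with these classes. Promoter copies had a median width of 594 bp, against 974.5 bp for regions over 5 kb from every TSS. Of the regions over 5 kb from every TSS, the 736 between 443.5 and 943.75 bp wide, the middle 50% of the copies' widths, had H3K4me1 in 78.03% ± 1.5 of cases in FC/FC and 75.1% ± 2.8 in F/F. Read the other way, 692 of the 3578 regions (19.3%) had no H3K4me1 peak in any library and 436 of them (63.0%) were copies. Of the 2129 regions with H3K4me1 in all 6 libraries, 24 (1.13%) were copies, and of the 133 regions with no H3K4me2 peak, 116 (87.2%) were.

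The other classes differed from the regions over 5 kb from every TSS by far less. Regions at a coding TSS had H3K4me1 peaks 3.94 points more often, those with a TSS 1 to 5 kb away 2.20 points more often, and those at a noncoding TSS less often, with a difference of −7.30 points (each adjusted p = 0.03125 by the same exact permutation test, the same direction in 6 of 6 libraries). Their H3K4me2 differences were 0.76, 0.50, and −1.61 points, all with adjusted p = 0.03125 by the exact test, on mean shares of 97.1% to 99.6% in every class but the copies. H3K4me3 scores, given as a description, were far higher at coding TSSs. The median score at coding TSSs was 2415 ± 348 in FC/FC and 2604 ± 671 in F/F, against 319 ± 17 in FC/FC and 387 ± 99 in F/F at the regions over 5 kb from every TSS.

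The 3 marks were layered differently around the region centers. At regions over 5 kb from every TSS, H3K4me1 covered the center of 76.7% ± 2.5 of regions in FC/FC and 73.1% ± 2.3 in F/F, and H3K4me2 that of 98.9% ± 0.093 in FC/FC and 98.4% ± 0.29 in F/F. At coding TSSs H3K4me1 covered fewer centers, 60.7% ± 3.7 in FC/FC and 56.2% ± 4.1 in F/F, and covered as many positions 1 kb away, 59.4% ± 2.9 in FC/FC and 56.2% ± 5.1 in F/F. At the copies it covered 6.07% ± 0.47 of centers in FC/FC and 5.33% ± 0.43 in F/F, about the level at 1 kb, 7.37% ± 0.54 in FC/FC and 6.35% ± 1.4 in F/F. As called, peaks at the copies thus showed a narrow H3K4me3 and H3K4me2 maximum with little H3K4me1 on its flanks.

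**Figure D2:**
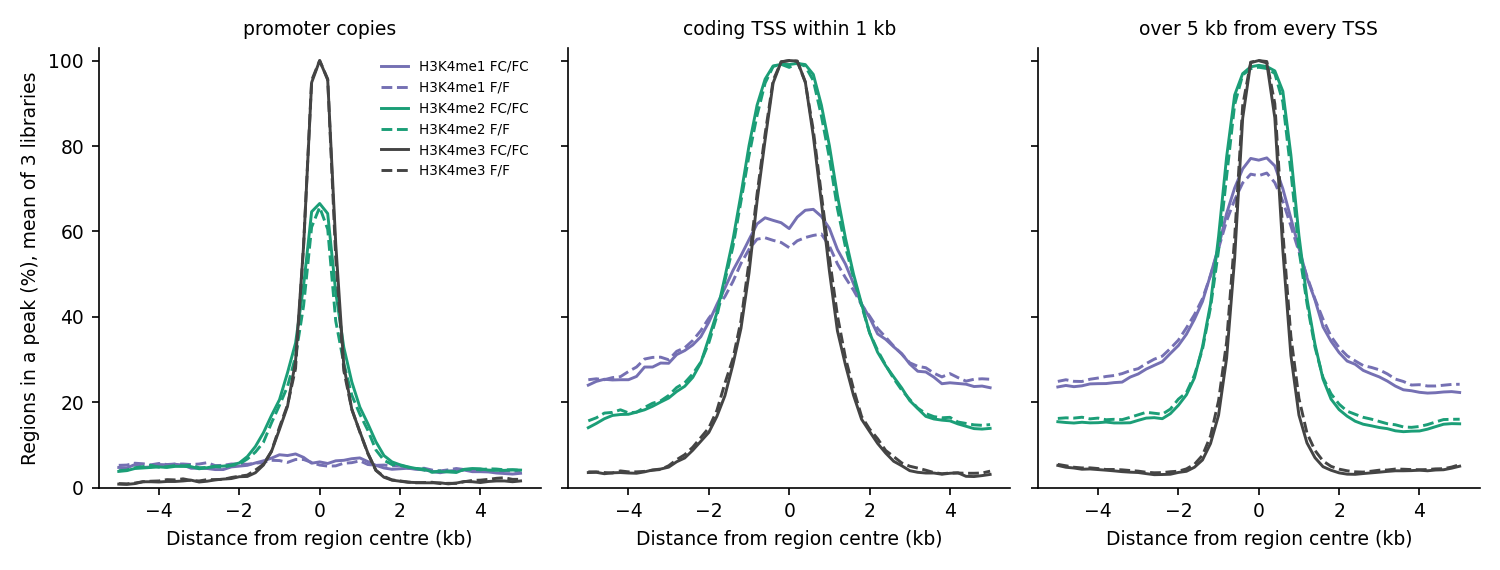
Percentage of regions whose position at a given distance from the center (in kb) lies in a peak, as the mean of 3 libraries, for promoter copies, regions with a coding TSS within 1 kb, and regions over 5 kb from every TSS. Purple is H3K4me1, green H3K4me2, and black H3K4me3, with FC/FC as solid and F/F as dashed lines. At the center H3K4me1 stands at 6.07% of copies, 60.7% of coding TSS regions, and 76.7% of the last class in FC/FC.

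The question the study's design poses of these regions is whether they changed when MLL2 was excised. H3K4me1 peaks lay on 74.1%, 71.9%, and 73.0% of the 3578 regions in the FC/FC libraries, against 70.7%, 66.2%, and 72.8% in the F/F libraries. Of the FC/FC values, 71.9% lay below the highest F/F value and the others above it, so the groups overlapped. The difference was 3.11 points (exact two-sided permutation test, p = 0.2, with 0.1 the smallest p for 3 against 3). It was 4.77 points (exact p = 0.1) when peak lists were cut to equal length by score, and 1.27 points (exact p = 0.4) without the F/F library of 66.2%. Every H3K4me1 library of FC/FC, at 31253262 to 38871331 reads, was deeper than every one of F/F, at 26714377 to 30528079. Depth and genotype thus went together for this mark. The part of depth in the H3K4me1 differences between the genotypes, here and below, was not tested. For H3K4me2 the shares were 94.5%, 94.2%, and 93.6% in FC/FC, against 93.8%, 93.3%, and 94.4% in F/F, a difference of 0.33 points (exact p = 0.5), or 2.02 points (exact p = 0.1) on lists of equal length. The label of the FC/FC library with 94.5% gives the catalogue number of the H3K4me1 antibody, and without that library the difference was 0.13 points (exact p = 0.9). Without the FC/FC library of 93.6% it was 0.57 points, without the F/F library of 93.3% 0.061 points, and without the F/F library of 94.4% 0.61 points (exact p-values of 0.3 to 0.9).

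Peak cover in the 4 kb around the centers also overlapped between the genotypes. H3K4me1 peaks covered 47.7% ± 1.5 of these windows in FC/FC and 46.2% ± 3.1 in F/F (exact p = 0.5), and the sign turned, to −0.15 points, without the F/F library of 26714377 reads, the shallowest of the H3K4me1 libraries. H3K4me2 peaks covered 58.4% ± 3.4 in FC/FC and 57.1% ± 1.6 in F/F (exact p = 0.6), with a difference of 1.33 points that was 3.25 points without the library labelled with the other antibody (exact p = 0.1). It was 0.038 and 0.72 points without each of the other FC/FC libraries and 0.46, 1.59, and 1.96 points without each F/F library (exact p-values of 0.5 to 1). By class, the H3K4me1 share differed by 0.87 points in promoter copies to 4.995 points at noncoding TSSs, with exact p-values of 0.2 to 0.6. For H3K4me2 the regions over 5 kb from every TSS did not overlap, at 98.91% to 99.03% in FC/FC and 98.2% to 98.8% in F/F (difference 0.45 points, exact p = 0.1). The median H3K4me2 score of all 3578 regions, 3100 in 5 of 6 libraries, is at the ceiling. Its log2 ratio to the median of all distal H3K4me2 peaks thus moved mainly with that second median, 229 to 304 in single libraries. The ratio differed between the genotypes by 0.12 (exact p = 0.5), or by 0.56 (exact p = 0.1) when peak lists were cut to equal length by score. Such a ratio cannot show a change at regions already at the ceiling. With 3 libraries a side, none of these tests could reach 0.05.

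H3K4me2 was also compared at distal H3K4me1 regions without H3K4me3. In those 78913 regions H3K4me2 peaks were present in 33.1% ± 1.5 of cases in FC/FC and 40.5% ± 3.0 in F/F. The gap between the constant H3K4me3 regions and these regions was 61.03 ± 1.8 points in FC/FC and 53.3 ± 2.4 points in F/F. It ran from 59.8 to 63.1 in FC/FC and from 50.5 to 55.1 in F/F, without overlap, and the difference of 7.73 points had the smallest p this design allows (exact permutation test, p = 0.1). Without the FC/FC library labelled with the H3K4me1 antibody number it was 6.68 points, with peak lists of equal length 3.44 points (exact p = 0.1), and with 50% overlap 5.37 points (exact p = 0.3). The share at the constant H3K4me3 regions is close to its ceiling, which limits how far it could move. Those regions also needed an H3K4me3 peak in every library of both genotypes, whereas an H3K4me1 peak in any library sufficed for the others. Of all distal H3K4me1 regions, 0.922% had a peak in every F/F and no FC/FC library, against 0.324% for the reverse. The part of this unlike choice in the difference was not tested.

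**Figure D3:**
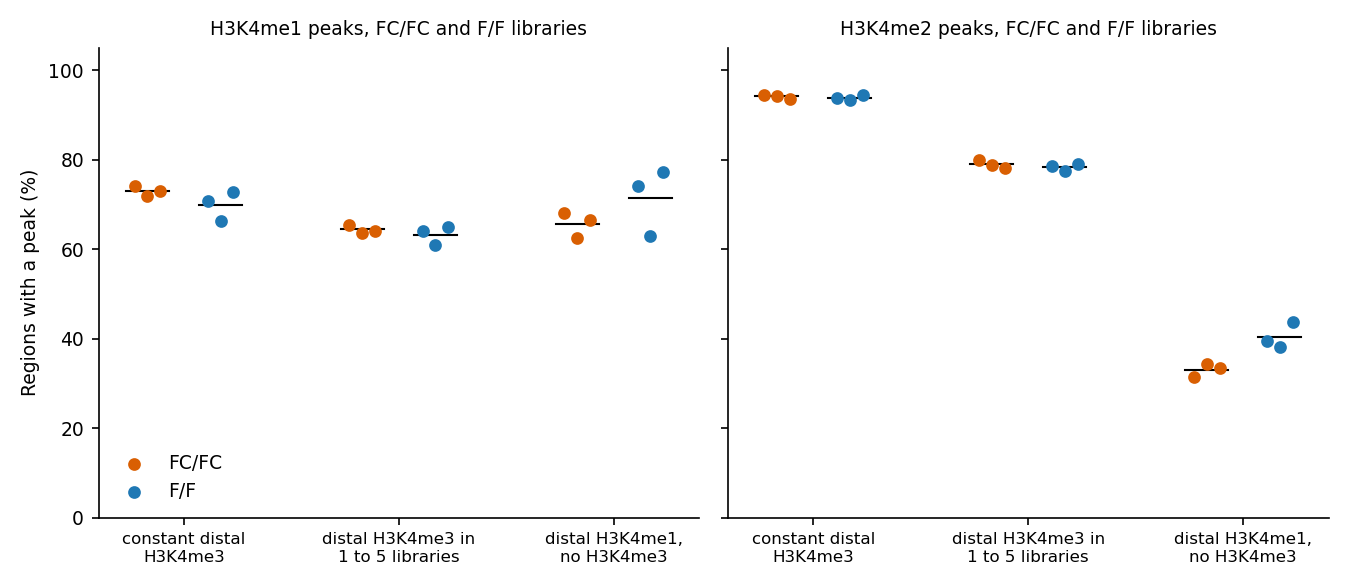
Percentage of regions with an H3K4me1 peak (left) or H3K4me2 peak (right) in single libraries (points) with means (bars), FC/FC in orange and F/F in blue, for the constant distal H3K4me3 regions, distal regions with H3K4me3 in 1 to 5 libraries, and distal H3K4me1 regions without H3K4me3. H3K4me1 peaks chose the last set, so its H3K4me1 share is shown as a description. H3K4me2 on that set averages 33.1% in FC/FC and 40.5% in F/F, and on the constant regions 94.1% in FC/FC and 93.8% in F/F.

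Single regions rarely switched. An H3K4me1 peak in all 3 FC/FC libraries and no F/F library was found at 15 of the 3578 regions (0.419%), against 0.324% of all 84063 distal H3K4me1 regions, and the reverse at 1 region (0.0279%), against 0.922%. For H3K4me2 the counts were 3 (0.0838%), against 0.0999% of 54035 distal H3K4me2 regions, and 2 (0.0559%), against 2.52%. A region that kept H3K4me3 in every library differs from the background in strength as well, so the counts are a description.

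None of the 15 gains of H3K4me1 was at a promoter copy. Copies made up 15.0% of the regions, and 81.0% of the copies had no H3K4me1 peak in any library. In the 10 gains with the highest H3K4me3 scores the new H3K4me1 peaks scored 50.6 to 286. At chr13:83523197-83526692, over a start of the transcription factor gene Mef2c, the H3K4me1 scores were 52.0, 139, and 67.0 in FC/FC, with no peak in F/F, and H3K4me3 and H3K4me2 stood at 3100 in every library. Other gains lay over starts of Arhgap5 (80.1, 123, and 173 in FC/FC), which encodes a GTPase-activating protein, and of Arhgef6 (90.4, 164, and 134 in FC/FC), which encodes an activator of Rac. A further gain lay in Cacna1a, the gene of a calcium channel subunit, with 80.3, 71.4, and 93.5 in FC/FC. The lone loss, at chr9:15492925-15493440 over a start of Smco4, had no peak in FC/FC, against scores of 129, 64.8, and 79.7 in F/F. The deposited lists start at a score of 50, so most of these peaks stood near the limit of detection. The H3K4me1 libraries were all deeper in FC/FC, as given above, and the part of depth in the gains was not tested.

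Set against the distal regions with H3K4me3 in only 1 to 5 libraries, the constant regions more often carried the other marks. The shares in that set were 64.4% ± 0.92 in FC/FC and 63.3% ± 2.1 in F/F for H3K4me1, and 79.0% ± 0.92 in FC/FC and 78.3% ± 0.70 in F/F for H3K4me2. The H3K4me1 share of the constant regions was higher in all 6 libraries, by a mean of 7.64 points, as was their H3K4me2 share, by 15.3 points (both p = 0.03125, exact sign-flip permutation test, the smallest p for 6 libraries). In single libraries the H3K4me1 difference was 8.25 to 8.91 points in FC/FC and 5.30 to 7.94 points in F/F, without overlap, and its means differed by 1.94 points (exact permutation test of 3 against 3, p = 0.1). The H3K4me1 difference also depended on how peaks were counted. It was 1.63 points (exact p = 0.125) with peaks scoring at least 100, 2.11 points (exact p = 0.0625) when a peak had to cover 50% of the region, and 2.05 points when the FC/FC H3K4me3 library with 31113989 reads was left out of the rule. Without promoter copies on either side it was 12.1 points. The H3K4me2 difference was 7.70 points without that same library in the rule. Regions called in fewer libraries were weaker, with a median mean score of 76.7, the constant regions having 476, and a little narrower, with a median width of 863 bp.

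The constant regions were CpG-rich more often than either distal set, which is given as a description. In the central 300 bp, 25.3% of the constant regions were CpG-rich, defined as at least 50% GC with an observed over expected CpG ratio of at least 0.6. The share was 10.9% in the regions with H3K4me3 in 1 to 5 libraries, 0.256% in distal H3K4me1 regions without H3K4me3, and 53.6% within 5 kb of a TSS. The median ratio was 0.48 in the constant regions, against 0.32 in the regions with H3K4me3 in 1 to 5 libraries, 0.17 in the distal H3K4me1 regions, and 0.66 within 5 kb of a TSS. Among the constant regions, promoter copies (37.4%) and coding TSSs (36.6%) were most often CpG-rich and the regions over 5 kb from every TSS least often (17.0%), which was still above the regions with H3K4me3 in fewer libraries.

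**Figure D4:**
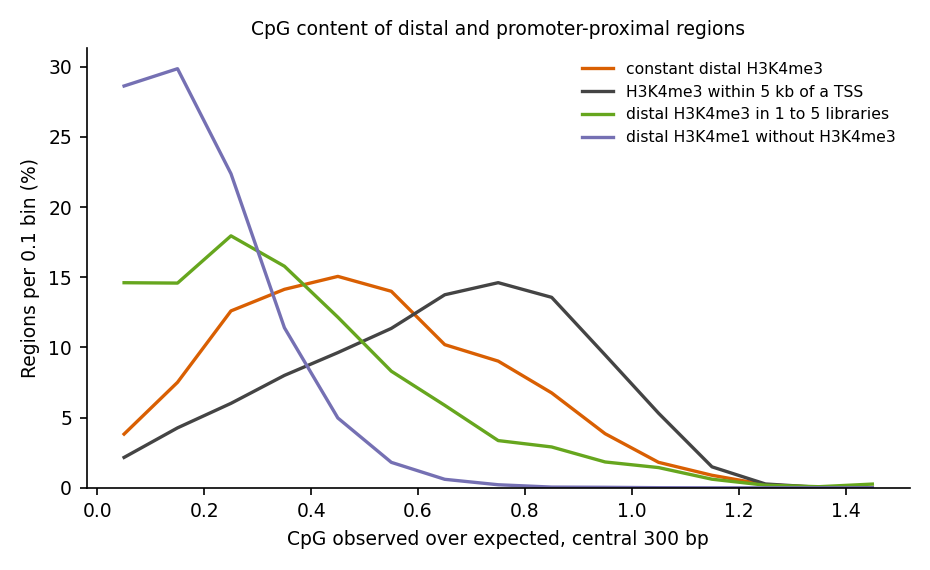
Distribution of the observed over expected CpG ratio in the central 300 bp of regions, in percent of regions for each bin of 0.1. The constant distal H3K4me3 regions (orange, median 0.48) lie between the promoter-proximal intervals (black, median 0.66) and the distal regions with H3K4me3 in 1 to 5 libraries (green, median 0.32) or with H3K4me1 and no H3K4me3 (purple, median 0.17).

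The GC box followed the same order. It is GGGCGG on either strand, is bound by factors of the Sp family, and was found in 24.96% of the constant regions, against 12.9% with H3K4me3 in 1 to 5 libraries, 4.04% in distal H3K4me1 regions, and 41.7% within 5 kb of a TSS. Of 32851 promoter windows of the same length 35.7% held it. The AP-1 site TGANTCA, bound by Fos and Jun proteins at many fibroblast enhancers, ran the other way. It was in 9.50% of the constant regions, against 13.9% with H3K4me3 in 1 to 5 libraries, 18.7% in distal H3K4me1 regions, 4.58% within 5 kb of a TSS, and 7.81% of promoters. Within the regions over 5 kb from every TSS, 14.3% of the 1144 with H3K4me1 in all 6 libraries held an AP-1 site, against 3.55% of the 141 with no H3K4me1 peak. The 141 were narrower, with a median of 671 bp against 1041.5 bp in the 1144, and had a lower median GC content, 47.3% against 50.3%, yet 21.3% of them were CpG-rich against 13.9% of the 1144. Their median H3K4me3 score was 252, against 365. A match is a run of letters and not a sign of binding.

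Among the regions over 5 kb from every TSS with H3K4me3 at the ceiling was chr1:171043687-171045759, whose sequence is printed above. Its H3K4me3 scores were 3100, 3164, and 3200.3 in FC/FC, against 3100 in each F/F library. It had an H3K4me2 peak in every library, at 2553 to 3028 in FC/FC and 2503 to 3100 in F/F, but an H3K4me1 peak only in 1 F/F library, at 55.6. By contrast chr2:32136945-32138264, 12884 bp from Prrc2b, had H3K4me1 in all libraries, at 219.9, 227, and 262 in FC/FC and 205, 197, and 275 in F/F. Strong H3K4me3 thus occurred both with H3K4me1 in every library and with hardly any. At chr11:98788352-98790170, 5599 bp from Msl1, a gene of a histone acetyltransferase complex, the H3K4me1 scores were 2386, 2848, and 2377 in FC/FC, against 144, 1288, and 216 in F/F. The genotypes did not overlap there, and single regions were not tested.

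Genes were assigned to the regions as the host transcript or the nearest TSS. Of 24276 genes in the tables, 2932 (12.1%) had such a region, which for some genes lies far off or in a neighboring gene. Among 17 immediate early genes, which respond to serum and stress, 8 did (47.1%), namely Fos, Fosb, Jun, Atf3, Egr1, Ier2, Ier3, and Klf4. All genes in the tables were counted, active or not, so the shares of the gene lists are a description. An Ier2 region lay over a start of Cacna1a, 23447 bp from Ier2, and a Klf4 region lay 118226 bp away. A Fosb region lay over a start of Gm26802 and an Atf3 region over a start of D730003I15Rik. Fos, a subunit of AP-1, had a region at chr12:85485334-85488188, 11433 bp from its TSS, with H3K4me3 and H3K4me2 at 3100 in all libraries and H3K4me1 at 333, 307, and 408.3 in FC/FC, against 310.4, 303, and 508 in F/F. A second Fos region, at chr12:85454750-85456512, had H3K4me1 at 1568, 1123, and 1247 in FC/FC, against 1227, 1064, and 1601 in F/F. In both regions the genotypes overlapped.

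Of 12 p53 targets 7 had a region (58.3%). At Bbc3, which encodes the cell death protein PUMA, chr7:16298700-16300773 lay 8810 bp from the TSS with H3K4me3 at 3100 in all libraries and H3K4me1 at 1669, 1433, and 743 in FC/FC, against 1403, 1345, and 3121 in F/F. The others were Ccng1, Bax, Gadd45a, Sesn2, Zmat3, and Btg2, although the Zmat3 regions lay over a start of Pik3ca, a lipid kinase gene, the Bax region lay in Dhdh, and the Ccng1 region was 171970 bp away. Of 23 mesenchymal transcription factors 9 had a region (39.1%), among them Twist1, Prrx1, Prrx2, Tbx15, Runx2, Osr1, and Tead1. Regions near Twist1 had H3K4me3 at 58.9 to 943 in FC/FC and 106.8 to 951 in F/F.

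Fibroblast matrix genes had regions in 4 of 25 cases. Near Col1a2, which encodes a chain of type I collagen, 4 regions lay 15529 to 87931 bp from the TSS, and the nearest 2 of them adjoin and share peaks. At chr6:4456276-4457997 the H3K4me1 scores were 1832, 1771, and 1509 in FC/FC, against 1097, 1407, and 1656 in F/F, and the H3K4me3 scores 1296, 1536, and 1086 in FC/FC, against 1129, 1203, and 2268 in F/F. Both sets overlapped between the genotypes. Col5a1, Thbs1, and Cyr61 held the rest. Actin and SRF genes had regions in 3 of 15 cases (Actb, Vcl, and Mkl1) and myogenic genes in 3 of 8 (Myf6, Pax3, and Mef2c). H3K4 methyltransferases and demethylases had them in 1 of 13 (Setd1b), imprinted genes in 1 of 15, and adipogenic genes in 0 of 8.

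That imprinted gene was Snrpn, a gene of the paternally expressed cluster on chromosome 7. Its 5 regions lay between genes, 102934 to 481967 bp from its TSS and 20784 to 58359 bp from any annotated TSS, and none was a copy by the criteria above. All 5 had H3K4me2 peaks in every library and no H3K4me1 peak in any. The strongest, chr7:60243153-60245009, had H3K4me3 scores of 2719, 3100, and 2896 in FC/FC, against 3060, 3187, and 3100 in F/F, and the weakest, chr7:60585068-60585821, 228, 265, and 151 in FC/FC, against 175, 176, and 256 in F/F. The absence of H3K4me1 peaks in all 5 is shared with 8.57% of the regions over 5 kb from every TSS.

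Levels over whole genes were tested for the 1028 genes whose transcript holds one of 1332 of the regions. The measure was the deposited RPKM (reads scaled to transcript length and library size) over the transcript and 500 bp on each side, so it takes in far more than the region itself. For H3K4me1, 623 of these genes passed the filter on low values and 0 passed limma at an adjusted p of 0.05, as did 0% of all 8566 genes tested, with 128 of the 623 and 2142 of the 8566 at an unadjusted p under 0.05. Quantile normalization and median centering gave 2 of these genes each, both lower in FC/FC, where 1.00% and 1.02% of all genes tested passed. For H3K4me2, 16 of 569 passed limma, 1 higher and 15 lower in FC/FC. Under quantile normalization 44 passed, beside 3.40% of all genes tested, and under median centering 57, beside 4.35%, all of the 44 and 57 lower. With the values as deposited 2.14% of 9986 genes passed, 0.591% higher and 1.55% lower. The median log2 fold change of these genes was −0.05 for both marks, and that of all genes tested −0.0027 for H3K4me1 and 0.07 for H3K4me2. A transcript that holds such a region reaches over 5 kb from its start, so short genes are missing from this set but not from all genes tested. The part of length in these values was not tested.

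The H3K4me2 calls changed with single libraries. Without the FC/FC library labelled with the H3K4me1 antibody number 152 host genes passed, but so did 29.96% of all 9886 genes tested. Without any 1 of the other 5 libraries no host gene passed, and 0 to 18 of all genes did. Tns1, which encodes tensin of focal adhesions, had 1.25, 1.10, and 1.09 RPKM in FC/FC, against 1.68, 1.49, and 1.68 RPKM in F/F (log2 fold change −0.46 ± 0.07 SE, adjusted p = 0.0346, limma). Eng, the gene of the TGF-beta coreceptor endoglin, had 0.86, 0.79, and 0.77 RPKM in FC/FC, against 1.02, 1.02, and 1.12 RPKM in F/F (−0.35 ± 0.06 SE, adjusted p = 0.0424, limma). Zfp773, a zinc finger gene, was the only host gene that passed upward, with 2.14, 1.91, and 2.03 RPKM in FC/FC, against 1.70, 1.58, and 1.61 RPKM in F/F (0.30 ± 0.06 SE, adjusted p = 0.0478, limma). The genotypes did not overlap in these 3 genes.

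Libraries held 26714377 to 49990775 reads, as recovered from the steps of the RPKM values, which were whole multiples of 1 read in 100% of cases within 0.01 read. Of 12 fibroblast markers 10 had H3K4me3 over 1 RPKM in every library, as did none of the haematopoietic, endothelial, epithelial, or pluripotent markers and 1 of 5 neural markers (Sox2, with a mean of 11.4 RPKM). H3K4me1 peaks numbered 89026 to 101157 in FC/FC and 81444 to 120661 in F/F, H3K4me2 peaks 56112 to 58585 in FC/FC and 62100 to 70437 in F/F, and H3K4me3 peaks 17129 to 18296 in FC/FC and 17545 to 18701 in F/F.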

How the data were processed

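Libraries of H3K4me1, H3K4me2, and H3K4me3 (3 FC/FC and 3 F/F each) were used, 18 of the 52 samples listed, and the others were not analysed here. Per the methods and the submitters' processing notes, base calling used CASAVA 1.4, and the authors aligned reads to mm10 with BWA 0.7.10 at default settings and called peaks with MACS 1.4.2 against the H3 library of the same set. The 3 marks of a set share that H3 library. The score in the deposited peak lists is −10 log10 of the p-value, with a minimum of 50, and depends on depth. The deposited RPKM values cover RefSeq transcripts extended by 500 bp, and the tables also hold the authors' flags of active and damaged genes, which were not used. Both transcript ends lay within 50 bp of those in GRCm38.p6 for 90.5% of matched transcripts.

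An overlap of at least 1 bp counted as a peak on a region. Shares per library were compared by exact permutation tests of 3 libraries against 3 or by sign flips over 6 libraries. Gene levels, log2(RPKM + 0.1) with RPKM above 1 in at least 3 of 6 libraries, were tested with limma 3.58.1 in R 4.3.3 with Benjamini-Hochberg adjustment over all genes tested. For each gene with several transcripts, the one in the study's list of most damaged genes or else the longest was used, and transcripts under 250 bp were left out. Copies were found with BLAST 2.17.0 (megablast, e-value up to 1e-10), and other steps used Python 3.11.15, pandas 2.3.3, numpy 2.4.6, and matplotlib 3.10.9. Scripts were tested on simulated data. Members and gene lists were chosen with earlier results of these data known. Named regions were the highest in score or width, those at the limits of the rule, those that switched, and those near listed genes, with the host genes of smallest p. Sequences are of the GRCm38.p6 reference, which is mm10. Alternatives changed the peak score, overlap, distance, width, pseudocount, filter, normalization, transcript, and libraries. Some items are not reported here.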

Additional observations from a re-analysis of the deposited data

How the results depend on the processing

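Of the 208 alternative values computed, 181 kept their direction and their side of the threshold or stayed within 1.5 times a count. The differences between FC/FC and F/F shares, cover, and scores, tested with at most 3 libraries a side, could not reach 0.05 under any setting. For these only a turned sign could count as a change, so the 181 say little about how far their sizes moved. No paired analysis was possible because the labels give library numbers and no replicate numbers shared by the genotypes. The H3K4me1 difference from regions with H3K4me3 in 1 to 5 libraries was 1.63 points with peaks scoring at least 100 and 2.11 points with 50% overlap. Leaving 1 H3K4me3 library out of the rule gave 2.05 to 10.1 points for H3K4me1 and 7.70 to 17.1 points for H3K4me2 (each p = 0.03125, exact sign-flip permutation test). Leaving out 1 of the compared libraries gave 7.39 to 8.11 points for H3K4me1 and 15.2 to 15.5 points for H3K4me2. There, 5 libraries cannot give a p under 0.0625 by construction. The H3K4me1 peak cover difference reversed to −0.153 points without 1 F/F library and ran from that to 2.86 points. Regions numbered 1742 after a further distance filter on GENCODE M21 and RefSeq TSSs and 1646 when copies were removed too, both chosen after the data had been seen, as was the value without promoter copies. Host genes called for H3K4me1 numbered 2 under quantile normalization and 2 under median centering (1.00% and 1.02% of all genes tested passed). For H3K4me2 they numbered 44 and 57 under those settings (3.40% and 4.35% of all genes), and from 0 to 152 with 1 library left out (0% to 29.96% of all genes). The cause of these shifts was not tested. Scores saturate near 3100, so changes at the strongest regions are not detectable in them, and a share of regions with a peak depends on depth and on width.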

Other observations

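Constant distal H3K4me3 regions were spread over all main chromosomes, with 93 on chromosome 16 to 272 on chromosome 2 among the autosomes, 95 on chromosome X, and 5 on chromosome Y. Of the regions with H3K4me3 peaks in 5 of the 6 libraries, 531 in number, the 3 with the highest mean score lay nearest 4933427E13Rik, Cnot1, and Myh9, with mean scores of 509.96, 372, and 354. The one near Cnot1, a gene of the mRNA deadenylation complex, was a promoter copy, and the one near Myh9, the gene of a nonmuscle myosin heavy chain, was not. The regions within 5 kb of a TSS that the copies matched, 306 in number, had H3K4me1 peaks in 78.8% to 80.4% of cases in FC/FC and 69.3% to 75.8% in F/F, below the shares of all intervals within 5 kb of a TSS, 88.5% to 90.1% in FC/FC and 79.6% to 88.9% in F/F.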
